A study of Canis lupus familiaris with 109 samples.

Results

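In whole blood of domestic dogs, 2515 cytosine positions lay in dense clusters of measured positions and were nevertheless almost fully methylated. They were chosen from 304191 positions by 2 values. The density had to be 16 or more, counting the position and all others listed up to 100 bp to either side of it, and the median methylation fraction over 95 libraries had to exceed 0.8. Of the 65047 positions with this density, 90.5% (58879) had a median under 0.1 and are called dense unmethylated here, 5.62% (3653) lay between, and 3.87% were the dense methylated positions. Density and level chose these positions and are given below as a description, with no test.

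Cytosine methylation in mammals is found mainly at CpG dinucleotides, and methylated CpGs are lost over evolution because 5-methylcytosine deaminates to thymine. Stretches that keep many CpGs, called CpG islands, are therefore mostly sites that stay unmethylated in the germ line, and many lie at gene promoters. CpG-dense sequence that is methylated in somatic tissue is the exception. Known examples are CpG islands within gene bodies, promoters of germline genes and repeated sequence, and imprinted regions carry methylation on the allele from a single parent.

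The study captured selected regions of bisulfite-treated DNA, a treatment after which unmethylated cytosines are read as thymine, in dogs of many ages. The labels list 109 samples of 103 dogs, aged 0.134 to 15.5 years, and 94 of the samples fall into 4 life stages by age. The highest age in these stages is 14.5 years. Another 8 samples are labelled as removed from the processed data for low coverage. The codes of the 95 libraries in the main table and of the 7 in a second table of repeat captures are found in no label. Libraries are therefore not grouped by age, stage or sex, and values are given as the lowest, median and highest library. Read depth is unknown, because fractions were deposited without read counts, and no interval is given for a single value. Whole blood mixes cell types, and a fraction under 1.0 in all cells cannot be told apart from a lack of methylation in some of them. Coordinates are on CanFam3.1 as the table lists them, with an uncertainty of 1 bp, and are not tied to genes, since the gene table at hand is on another assembly.

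The dense positions between the classes lay mostly near the unmethylated end, with a median level of 0.21. In intervals of 0.05 the count was lowest, at 79 positions, between 0.65 and 0.7, and was 1116 between 0.9 and 0.95 and 978 above 0.95. The median level of the dense methylated positions was 0.95, with quartiles of 0.92 and 0.96, and 140 of them had a median of 1.0. At the limits of the choice, 48 dense positions had a median over 0.8 up to 0.82 and 52 a median over 0.78 up to 0.8. A further 1405 positions above 0.8 had a density of 14 or 15 and were not included, against 964 with a density of 16 or 17. The methylated share fell with density, from 6.26% of the 24574 positions at densities of 16 to 19 to 1.71% of the 5970 positions at 28 to 31 and 0.324% of the 9888 positions at 32 to 88. Density counts listed positions, so both strands of a CpG count where both are listed.

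**Figure D1:**
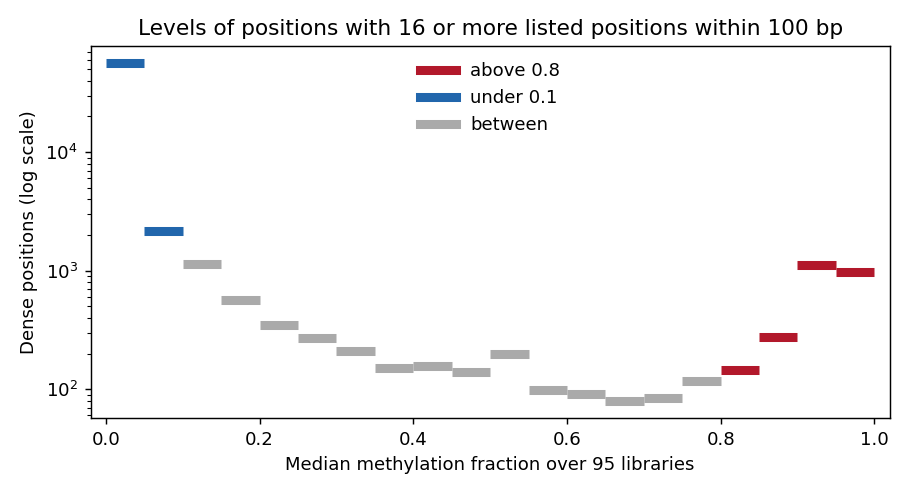
Number of dense positions (log axis) in each interval of 0.05 of the median methylation fraction over 95 libraries. The count is 56700 in the lowest interval, falls to 79 between 0.65 and 0.7 and is 1116 between 0.9 and 0.95.

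Joined where they were at most 100 bp apart, the dense methylated positions formed 222 short runs. The runs had a median of 10.5 members and 91 bp, and the longest spanned 359 bp. Runs of 5 or more members, of which there were 163, held 2385 of the 2515 positions, while 21 runs were single positions. In 160 runs every listed position was a member, 43 runs enclosed dense positions of middle level, and none of the 222 enclosed a dense unmethylated position. The dense unmethylated positions formed 2928 runs with a median of 18 members and up to 183.

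The runs with the most members differed little between libraries, except that on chromosome 7. Here and below, ranges of library means were not adjusted for the number of members averaged. The largest, with 38 members on chromosome 23 from 38548218 to 38548548, had library means from 0.921 to 0.972 with a median of 0.954. A run of 35 members on chromosome 24 from 43766068 to 43766380 lay between 0.899 and 0.976, median 0.958. A run of 33 members on chromosome 10 from 67555153 to 67555368 lay between 0.899 and 0.975, median 0.947. All 95 libraries were thus near the top of the scale at these 3 runs. Of 4 runs with 32 members, those on chromosome 3 from 91401151 to 91401318 and on chromosome 22 from 55795686 to 55795904 had medians of 0.953 and 0.952. The third, on chromosome 24 from 47028014 to 47028372, reached only from 0.875 to 0.943, with a median of 0.907, and overlapped the others. The fourth, on chromosome 7 from 35128803 to 35129021, had a median of 0.938 and reached down to 0.757. Among the 163 runs of 5 or more members the median level ran from 0.836 to 0.973, and in 132 of them every library was at 0.8 or more.

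Repeat captures, which did not enter the choice, gave the same levels. The second table lists 2209 (87.8%) of the 2515 positions and holds 6 libraries with codes starting CHYB6. Their mean fractions at these positions were 0.930, 0.934, 0.926, 0.939, 0.936 and 0.932 for the numbers 1, 5, 6, 7, 8 and 10 in their codes. The libraries coded SCE_CF_Pilot with the same numbers had 0.929, 0.934, 0.923, 0.937, 0.934 and 0.931. That of number 1 is listed in the second table and did not enter the choice, and the others are in the main table. The repeat library was higher in 6 of 6 pairs, by a median of 0.00158 and by at most 0.00379. That is less than the standard deviation of 0.00655 between the 95 libraries, and it was not tested because the codes name no dog. The median absolute difference at a single position was 0.03 to 0.05, and 83.2% to 94.8% of the positions differed by no more than 0.1. The median of the CHYB6 libraries exceeded 0.8 at 2181 (98.7%) of the 2209 positions and was under 0.5 at none.

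At the level of runs the agreement was close for the median over libraries and looser for single libraries. For 157 runs with 5 or more members in the second table, the CHYB6 median lay between 0.806 and 0.977 and differed from the main median by a median of 0.00607. The largest difference was 0.0519. The highest levels in the second table were those of a run of 20 members on chromosome 1 from 21128235 to 21128329, with the 7 libraries from 0.955 to 0.979, and of a run of 10 members on chromosome 8 from 46472365 to 46472443, from 0.952 to 0.988. When each library was written as its deviation from the median of every run, the same-number SCE_CF_Pilot library was the closest of 96, which are the 95 main libraries and that of number 1, for numbers 1, 7 and 10, with correlations across the 157 runs of 0.365, 0.403 and 0.452. It ranked second for numbers 5 and 6, at 0.296 and 0.301, and 14th for number 8, at 0.161. Runs are not independent replicates, and these correlations are descriptive. Without the 18 positions described below that fell in 3 or more libraries, the ranks were 1, 3, 6, 1, 26 and 1 in the order of the numbers.

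The second table lists positions that the main table does not, and their values did not enter the choice. Within the spans of the runs it adds 1581 positions in 182 runs, of which 1554 lie 1 bp from a listed position and are the other strand of the same CpG. Of the 1581, 96.1% (1520) had a CHYB6 median above 0.8 and 0 had one under 0.1, and the library means over them ran from 0.925 to 0.936. The median number of positions of the second table within 100 bp was 32 around the dense methylated positions, 40 around the dense unmethylated ones and 4 around sparse methylated positions, which have a density of 1 to 3 in the main table and a median above 0.8.

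High levels extended well beyond the edges of the runs. An edge is set by the density rule as well as by level, so high positions of lower density lie outside by definition. The share above 0.8 over all positions of the second table is not given. From 1 to 50 bp outside a run, 83.7% of 2641 positions of the second table were above 0.8 and 0.151% were under 0.1. From 201 to 300 bp outside, 73.1% of 1771 positions were above 0.8. The median number of positions of the second table within 100 bp was 28 at this distance. It was 34 within the runs and 22 from 2001 to 5000 bp outside. These counts are not on the scale of the density used for the choice. Between 1001 and 2000 bp away 60.1% of 3784 positions were above 0.8 and 18.3% were under 0.1, and the shares were 47.4% and 37.5% from 2001 to 5000 bp. Around the dense unmethylated runs the order was the reverse, with 8.42% above 0.8 and 75.8% under 0.1 at 1001 to 2000 bp. The captured regions set which of these positions were measured.

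**Figure D2:**
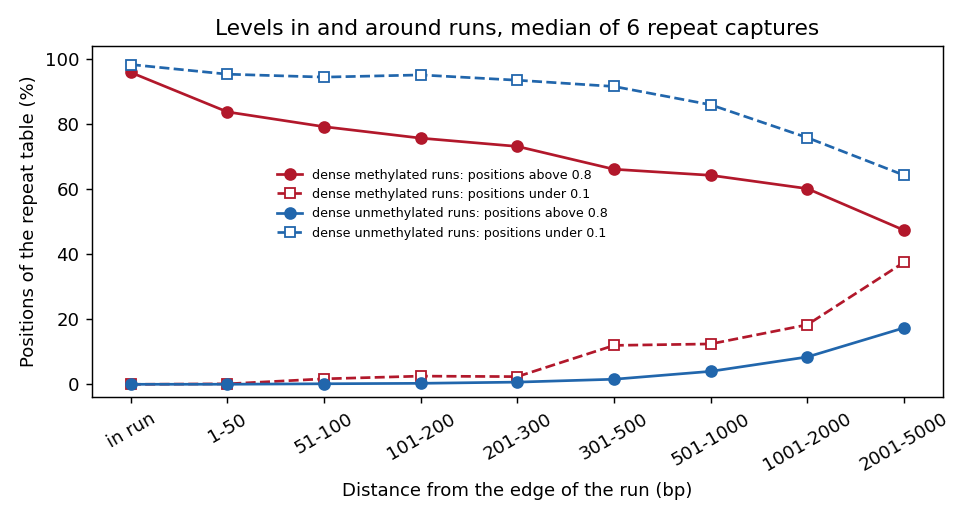
Share of positions of the second table (percent) with a median over the 6 CHYB6 libraries above 0.8 (filled) or under 0.1 (open), by distance from the edge of dense methylated runs (red) and dense unmethylated runs (blue). At 1001 to 2000 bp, 60.1% of positions around dense methylated runs are above 0.8, against 8.42% around dense unmethylated runs.

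Few runs bordered directly on unmethylated dense sequence. The median distance from a run to the nearest dense unmethylated position was 160923 bp, and 5, 11 and 19 of the 222 runs had such a position within 100, 500 and 2000 bp. Of the 11 runs within 500 bp, 8 had fewer than 5 members. The largest run of all, on chromosome 23, was among the 19. After its last member, 7 listed positions up to 38548603 had medians from 0.9 to 0.96, and the next listed position, 498 bp further at 38549101, had a median of 0, as had the 11 that followed it up to 38549153. The 19 dense unmethylated positions from 38549182 to 38549339 came next, with a median of their levels of 0. Single libraries are listed at 1.0 at some of these unmethylated positions. Whether such values reflect methylation was not tested, since read depth is unknown. In the comparison of library means below, such values at dense unmethylated positions were not counted as 1.0.

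The second table fills the gap of 498 bp with 39 positions and shows where the level falls. At 38548832 the median of the 6 CHYB6 libraries was 1.0 and the lowest stood at 0.75. At 38548876 the median was 0.685, with libraries from 0.4 to 1.0. At 38548888 it was 0.43, from 0.18 to 0.75, and at 38548897 it was 0.105, from 0 to 0.25. At 38548922 all 6 libraries were at 0. The decline was uneven from position to position, as the medians were 0.47 at 38548840 and 0.56 at 38548879, and 0.35 again at 38548944.

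Among the runs of 5 or more members, 3 of the 4 nearest to a dense unmethylated position had lower levels and lay in blocks of middle level. A run of 23 members on chromosome 9 from 10370133 to 10370307 lay 135 bp from such a position and had libraries between 0.787 and 0.910 around a median of 0.858. A run of 5 members on the same chromosome from 10350531 to 10350549 lay 539 bp away, at a median of 0.864 and from 0.72 to 0.956. It belongs to a block between 10349815 and 10351622 that holds 21 dense methylated positions among 345 dense positions of middle level, whose medians ran from 0.23 to 0.8. The only dense unmethylated position of the block, 10349992, had a median of 0.06. Its neighbours at 10349989 and 10349999 had medians of 0.44 and 0.42. All 10 dense methylated positions with a density of 50 or more were in this block. Most CpGs of the block are listed on both strands, and the density counts each listed strand. The 21 members had medians from 0.81 to 0.94. A run of 5 members on chromosome 24 from 21312123 to 21312146, 265 bp from an unmethylated position, was higher, at a median of 0.922 and from 0.806 to 1.0.

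The fourth, a run of 17 members on chromosome 4 from 10463111 to 10463246, also had the widest range of all 163 runs. Its library means ran from 0.472 to 0.952 with a median of 0.858. The 4 lowest libraries stood at 0.472, 0.557, 0.631 and 0.682, and in the lowest, coded L8_A11, 8 of the 17 members were under 0.5. The members rose and fell together, with a median correlation of 0.698 between members across the 95 libraries, against a median of 0.0690 over the 163 runs. The positions around and between them were of middle level, as 31 dense positions between 10463025 and 10463639 had medians from 0.35 to 0.78. Some of the 31 lie 1 bp from a member and are the other strand of the same CpG. The median was 0.63 at 10463110 against 0.82 at the member 10463111, and 0.6 at 10463199 against 0.84 at the member 10463200. A single dense position at 10463606 had a median of 0. None of its members is listed in the second table.

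**Figure D3:**
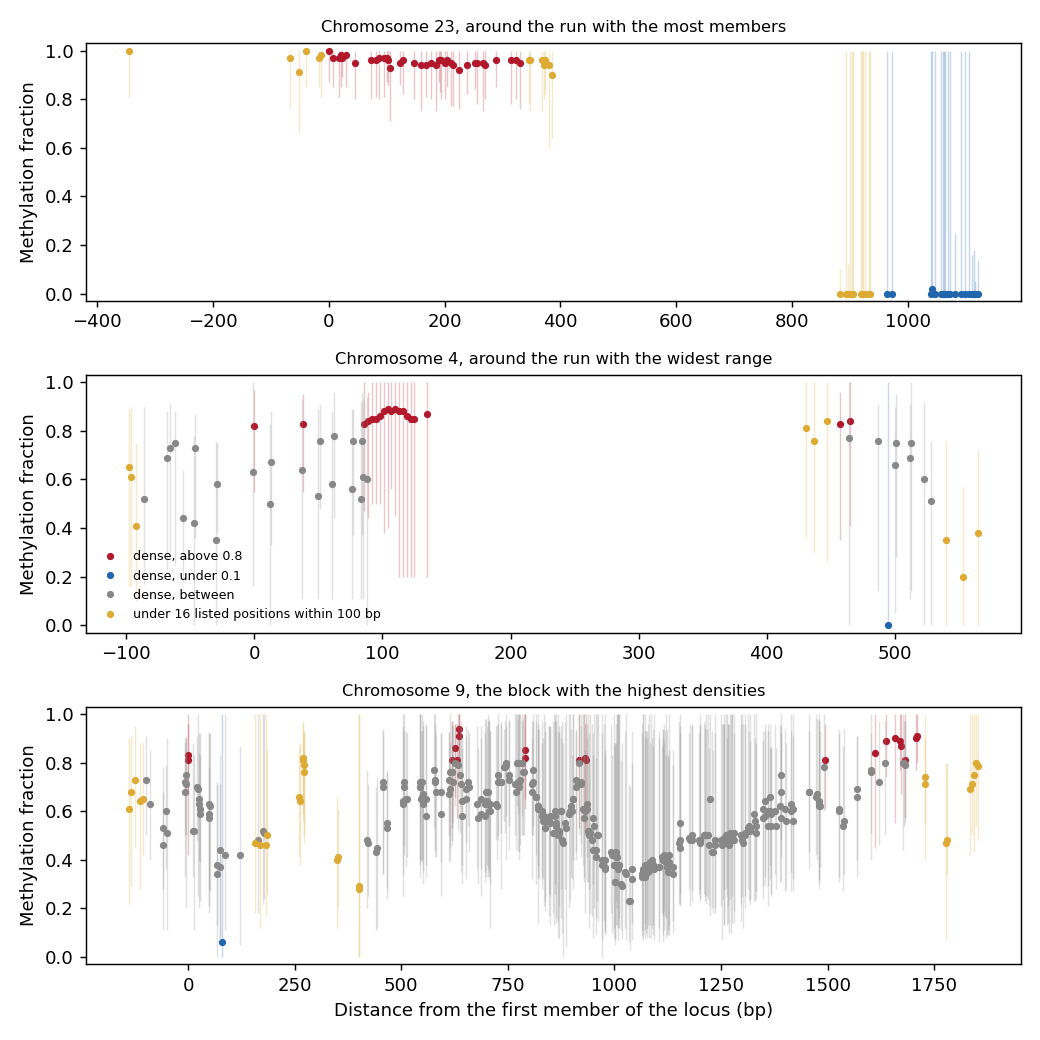
Median methylation fraction of each listed position (points) with the lowest and highest of 95 libraries (vertical lines), against the distance in bp from the first member, around the largest run (chromosome 23), the run with the widest range (chromosome 4) and the block with the highest densities (chromosome 9). On chromosome 23 the level passes from 0.9 to 0 across a gap of 498 bp, whereas on chromosomes 4 and 9 the members (red) sit at the top of blocks of middle level (grey). The vertical lines show values as deposited. They include single high values at positions with a median of 0, and whether these reflect methylation was not tested.

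Some runs lay on evenly spaced positions. Taking positions 1 bp apart, which are the strands of a single CpG, as 1, the longest series of equal distances was searched in each run. Of the 222 dense methylated runs, 4 (1.80%) had a series of 6 or more equal distances, against 2 (0.0683%) of the 2928 dense unmethylated runs, in which no series was longer than 6. With 5 or more equal distances the counts were 4 (1.80%) and 15 (0.512%). On chromosome 11, 19 positions followed each other every 6 bp from 10442879 to 10442987. In the chromosome 4 run described above, 12 positions were 3 bp apart from 10463203 to 10463236, on chromosome 5 it was 9 positions from 32388085 to 32388109, and on chromosome 27 it was 7 positions from 45855264 to 45855282. Whether these positions lie in tandem repeats was not tested, since no sequence was read.

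These 4 runs did not share a level. The 21 members on chromosome 11 averaged 0.928 in the lowest library, 0.973 in the median and 0.994 in the highest. The 17 members on chromosome 5 averaged 0.902, 0.963 and 0.994. Their ranges were narrow, the 154th and 124th widest of the 163. The runs on chromosomes 4 and 27 had the widest range and the third widest. The run of 9 members on chromosome 27 from 45855242 to 45855290 reached from 0.56 to 0.968, and 32 libraries were under 0.8, around a median of 0.836. Its members correlated across libraries with a median of 0.834, and it had the lowest level of the 157 runs in the second table, where the 6 CHYB6 libraries stood at 0.826, 0.899, 0.728, 0.843, 0.786 and 0.701 for numbers 1, 5, 6, 7, 8 and 10. By the median of the 7 libraries of that table, the next lowest was a run of 15 members on chromosome 1 from 111536297 to 111536452, there at 0.805 to 0.976, whose main libraries ran from 0.693 to 0.956. The runs on chromosomes 4, 5 and 11 are not in the second table, which lists no member of 11 runs.

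In 2 further runs of wide range the low values followed the library code. The run of 5 members on chromosome 36 from 2549823 to 2549857 had a median of 0.952, a lowest library of 0.582 and 7 libraries under 0.8. The run of 6 members on chromosome 20 from 53720567 to 53720603 had a median of 0.898, a lowest library of 0.578 and 11 libraries under 0.8. The codes of 84 libraries consist of a prefix from L1 to L9 and a second element, and 16 of them carry A1, A3 or A4 as that element, a set chosen after the data were seen. All of the 10 lowest libraries were from this set in both runs. On chromosome 36 the 16 ranged from 0.582 to 0.962 with a median of 0.82, and the other 68 from 0.918 to 0.99 with a median of 0.957. On chromosome 20 the 16 ranged from 0.578 to 0.918 with a median of 0.745, and the other 68 from 0.835 to 0.975 with a median of 0.909. The sets overlapped in both runs.

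The same set held 8 of the 10 lowest libraries of the chromosome 7 run, where its median was 0.880 against 0.945, and 6 of the 10 lowest of the chromosome 24 run at 21312123. It held none of the 10 lowest libraries in the chromosome 4 run and 2 in the chromosome 27 run. Over the 163 runs its median was lower than that of the other 68 in 63, and the median difference was 0.00206, with the set higher. In 7 runs it was lower by more than 0.05, namely on chromosome 3 at 37546726 and at 62507905, on chromosome 4 at 25591749, on chromosome 36 also at 2550110, and in the runs named on chromosomes 7, 20 and 36. The largest difference in the other direction was 0.05, in 1 run. What the second element stands for is not given in the sources used here, and its part in these values was not tested.

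**Figure D4:**
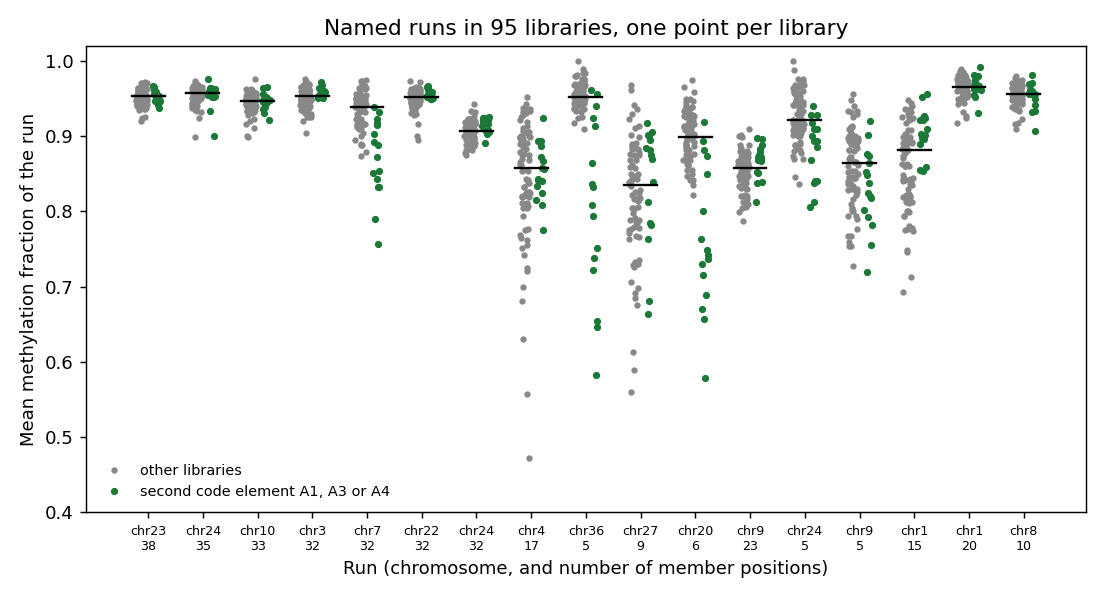
Mean methylation fraction of each named run in 95 libraries (points), with the median of all 95 (bars). The 16 libraries whose code has A1, A3 or A4 as second element are green and the others grey, and the green points reach down to 0.582 in the run of 5 members on chromosome 36 and to 0.578 on chromosome 20, while in the chromosome 4 run the lowest point, 0.472, is grey.

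Low values at single positions were few, which the choice by a median above 0.8 over the same libraries favours. Of 2515 members, 109 (4.33%) had at least 1 library under 0.5, against 7.15% of the 42921 sparse methylated positions. The median level of the sparse positions was lower, at 0.92 against 0.95, and the difference in shares was not tested. Most of the 109 rested on few libraries, 78 on 1 and 13 on 2. The other 18 positions, in 17 runs, held 157 of the 261 member values under 0.5. At position 38336216 on chromosome 13, 19 libraries were under 0.5, 6 of them under 0.12, while the median of all 95 was 0.9. At position 35128867 on chromosome 7 and at 13190285 on chromosome 19, 16 libraries each were under 0.5. In the libraries that were low at one of these positions, the rest of its run stayed high on average. For the 15 positions with 3 or more other members in the run, not counting a position 1 bp away, the mean of those members in the low libraries lay between 0.877 and 0.956. At 34347056 on chromosome 2, for instance, it was 0.934 in the 14 low libraries and 0.933 in the rest. The positions 49443150 and 49443151 on chromosome 25, strands of a single CpG, fell together. In the libraries low at the first, the second had a median of 0.5 against 0.87 in the rest, and the reverse comparison gave 0.6 against 0.88. None of the 2515 met the pattern used for a sequence variant, with at least 8 libraries near 0, near 0.5 and near 1, a rule that a median above 0.8 makes hard to meet. A variant at the cytosine was not tested, since no genotypes were used.

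Dense methylated positions were more frequent towards the ends of the listed sequence. Within 1 Mb of the last listed position of a chromosome lay 8.19% (206) of them, against 1.21% of the dense unmethylated and 2.09% of the sparse methylated positions. In other words, 15.6% of the 1322 dense positions in these end regions were methylated, compared with 3.62% of the 63725 elsewhere. The unmethylated share was 53.9% against 91.3%, so dense positions of middle level were also more frequent in the end regions. By runs, 14 of 222 (6.31%) lay there, against 33 of 2928 unmethylated runs (1.13%), and they came from 11 chromosomes. Chromosomes 3 and 2 gave 50 and 46 of the 206 positions. Within 1 Mb of the first listed position the shares were 5.33% and 2.88%, closer to each other. The last listed position stands in for the end of the chromosome, whose length was not used, and the positions of a run are not independent, so no test was made.

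Counts varied between chromosomes as well, but the positions of a run are not independent and no test was made. Members were found on 37 of the 38 autosomes, and their share of the dense positions had a median of 3.71% over chromosomes. It was highest on chromosome 29, at 15.2% (73 of 480, in 6 runs), followed by chromosome 13 at 10.0% (90 of 899, in 7 runs). Chromosome 38 had 0 members among 426 dense positions, and chromosome 12 had 6 among 2480. Chromosome 9 held the most members, 219 in 22 runs.

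The distances between neighbouring CpGs also differed slightly from those of the unmethylated class. With strands merged, 40.9% of the 2002 distances of up to 60 bp between dense methylated positions were multiples of 3 bp, against 35.8% of 45620 distances between dense unmethylated positions, 35.1% in the dense middle class and 35.7% in sparse methylated positions. In the second table, the shares within the spans of the runs were 37.9% of 1854 and 35.6% of 44962. Whether these runs lie in coding sequence was not tested. Distances of 3 bp in the evenly spaced runs are part of these counts.

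Neighbouring members were weakly correlated across libraries in most runs. The median correlation across 95 libraries was 0.146 for the 1339 neighbours 2 to 10 bp apart and 0.109 for the 629 at 11 to 50 bp. It was 0.0413 for the 314 pairs 1 bp apart, which are opposite strands of a CpG. In the largest run the median over all pairs of members was 0.0270. Levels near 1.0 leave little room for variation, and the standard deviation of a member over libraries had a median of 0.0515, against 0.0624 at sparse methylated positions.

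By library, the mean at the 2515 positions ran from 0.902 to 0.939 with a median of 0.931. In each of the 95 libraries it was above the mean at the sparse methylated positions, which ran from 0.870 to 0.917, and the difference was 0.0122 to 0.0535 with a median of 0.0237. Both classes were chosen by the same limit of 0.8, so this difference is given without a test. In the 7 libraries of the second table it had the same direction, for example 0.926 against 0.893 in the CHYB6 library of number 6. The share of member values at exactly 1.0 ranged from 1.47% to 52.5% between libraries, with a median of 26.2%. A share of this kind depends on the number of reads, which is not known.

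Libraries with less methylation at dense positions also had less at sparse ones. The library means of the 2 classes, which share no position, correlated with r = 0.710 (two-sided permutation test, p = 1e-05, adjusted 2e-05) and rho = 0.595 (permutation p = 1e-05, adjusted 2e-05), where 1e-05 is the smallest p that the permutations can give. Leaving out the 2 most distant libraries gave r = 0.613. Within code prefixes r lay between 0.334 in L9 and 0.875 in L3 and was above 0 in 10 of 10. The 4 lowest libraries, coded L1_A10, L5_A27, L3_A22 and L6_A27, stood at 0.902, 0.904, 0.905 and 0.915, in 4 different prefixes, and without them r was 0.510. With the library means at dense unmethylated positions no relation was detected (r = -0.10, permutation test, two-sided p = 0.332, adjusted 0.332, and rho = -0.116, p = 0.262), and leaving out the most distant 2 gave -0.107. Within prefixes this r ran from -0.649 to 0.220. For these means, a value of 1.0 was counted as 0.01 wherever the median was under 0.05. As deposited, the library means at dense unmethylated positions ran from 0.00720 to 0.151. With this change they ran from 0.00606 to 0.0125.

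**Figure D5:**
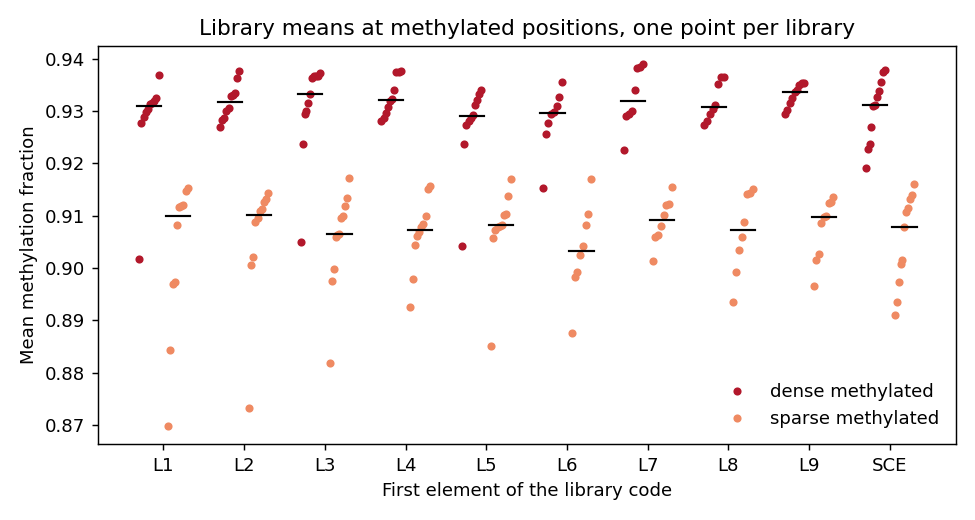
Mean methylation fraction of each library (points) at dense methylated (red) and sparse methylated positions (orange), with medians (bars), by the first element of the library code. The lowest red points, at 0.902, 0.904 and 0.905, belong to prefixes L1, L5 and L3, and the red points lie higher than the orange ones of the same library in all 95 libraries.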

How the data were processed

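Blood DNA was captured with SeqCap Epi, as the protocols in the labels state. Bismark 0.14.3, Bowtie2 2.1.0, Trim Galore and the build CanFam3.1 are listed in the submitters' processing notes, without their steps. The deposited values are methylation fractions per position and library, made by the authors without read counts in the files, so no coverage minimum could be set. Cells with more than 2 decimals (0.781%) were treated as filled in. Among member values the share was 0.786% over all libraries, but it was uneven, with 25.8% in L1_A7 and 8.31% in L2_A7. The table mapped to human probes gives no dog positions and was not used.

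The members, comparison classes and splits were chosen with earlier results of these data known. Named are the 6 runs with the most members (7 with ties), and among runs of 5 or more members the 4 with the widest range, the 4 nearest to a dense unmethylated position and the 2 highest and 2 lowest in the second table. Gene lists were set up but not used, since no position was tied to a gene, and the planned test of age, stage and sex was not run because no library was tied to a label. The search for evenly spaced positions, the chromosome ends, the distances in multiples of 3 bp, the split of added positions by strand and the code elements were chosen after the data were seen.

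Correlations across libraries used 100000 permutations with Benjamini-Hochberg adjustment over the 2 relations. The scripts were tested on simulated data. Versions were NumPy 2.4.6, SciPy 1.17.1, Matplotlib 3.10.9 and Python 3.11.15.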

Additional observations from a re-analysis of the deposited data

How the results depend on the processing

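The number of members depends on the density rule. In place of 2515 it was 405 with a window of 50 bp, 5795 with 200 bp, 6521 with a minimum density of 12 and 976 with 20, as a looser or stricter rule gives. It stayed within 1.5 times under limits of 0.7 and 0.9 for the level, the mean over libraries, without filled-in cells and with strands counted once. The number of runs stayed between 192 and 233. With each run weighted equally, the median library mean was 0.919 in place of 0.931. Members with a library under a limit numbered 300 at 0.6 and 51 at 0.4, in place of 109 at 0.5. Of positions only in the second table, 90.4% were above 0.8 when spans were widened by 100 bp and 98.5% were above 0.7. The relation between dense and sparse positions did not pass p = 0.05 within prefixes L4, L7, L8 and L9 (r = 0.428, 0.522, 0.478 and 0.334), which hold 8 to 10 libraries each. Without chromosome 3, 6.43% of members lay near the last listed position. No paired analysis was possible because no groups of samples were compared. The repeat captures are matched only by the number in their codes and are given as values. No read depth was at hand to set against these values.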
